A study of Mus musculus with 8 samples.

Results

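Transcript levels of 34 genes of glycolysis and the pentose phosphate pathway were described in naive CD4 T cells and in effector Th1, Th2 and Th17 cells from mice. The genes were taken by symbol from the FPKM tables (fragments per kilobase of transcript, scaled to the mapped fragments of the library, a level per length) and were 34 of the 23284 gene symbols listed. They cover glucose transport, each step from hexokinase to lactate, lactate export, the gate from pyruvate to the mitochondria, the pentose phosphate pathway, and the oxygen sensing factor *Hif1a* with the hydroxylase gene *Egln3*. Pyruvate kinase of this family is written *Pkm2* in the tables. *Pkm2* here counts all isoforms of the *Pkm* gene, and the splice forms M1 and M2 were not separated.

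The mouse strain was DO11.10 Tg in every group, which carries a transgenic T cell receptor specific for a peptide of ovalbumin (OVA). Naive cells were sorted from the spleen as CD44low CD62Lhi CD4+ cells and were not cultured. For effector cells, 6 days of culture with the OVA peptide followed, on splenocytes that were irradiated and freed of T cells. The Th1 medium held IL-2 (30 U/ml), IL-12 (100 U/ml) and antibody to IL-4 (1 µg/ml). Th2 cultures had IL-2 (30 U/ml) and IL-4 (100 U/ml) with antibody to IFN-γ (10 µg/ml), and Th17 cultures had IL-6, IL-1β and IL-23 (10 ng/ml each) with both antibodies (10 µg/ml each). Every comparison with naive cells therefore sets cultured, antigen-stimulated cells against uncultured ones, and culture, stimulation and polarization cannot be told apart in it. There were 2 libraries per group, and nothing states that they came from separate mice or cultures. The p-values then measure only the spread between these libraries.

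Glycolysis splits glucose into pyruvate in the cytosol, and lactate dehydrogenase turns pyruvate into lactate, which leaves the cell through monocarboxylate transporters. The pentose phosphate pathway branches off at glucose-6-phosphate and supplies NADPH and ribose-5-phosphate. Activated T cells are known for taking up glucose and releasing lactate even with oxygen present. HIF-1α, the product of *Hif1a*, binds DNA at short elements with the core ACGTG or GCGTG and is known to drive many glycolytic genes, and EGLN enzymes mark it for degradation when oxygen is at hand.

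The implied depth was 14463466 to 21058286 fragments per library. T cell markers were present in every library, with *Cd3e* at 196 to 351 FPKM. *Ifng* reached 614 FPKM or more in the Th1 libraries alone, *Il4* 97.6 or more in the Th2 libraries alone and *Il17a* 335 or more in the Th17 libraries alone. Markers of the other cells a spleen culture could hold were low in sum. The 6 B cell markers summed to 2.50 to 12.9 FPKM, the 4 NK cell markers to 0.11 to 1.51 and the 9 monocyte and macrophage markers to 14.0 to 35.1 per library, with 27.5 to 31.2 in naive cells. The dendritic cell list reached 272 FPKM in effector cells, of which *Batf3*, a gene T cells also use, made up 51.7 to 269. *Cd8b1* stood at 90.5 and 52.8 FPKM in the naive libraries and at 8.77 to 12.9 in effector libraries, while *Cd8a* was at 2.94 and 1.77 FPKM in naive cells. *Mpo* and *Elane*, neutrophil precursor genes, were at 2.46 to 4.89 FPKM in replicate 1 of each effector group and at 0.106 or less in replicate 2. The part of these other cells in the results was not tested.

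The effector cells held far more transcript of the pathway than naive cells. Summed over the 34 genes, the naive libraries had 1168 and 1163 FPKM, the Th1 libraries 8354 and 9363, the Th2 libraries 9673 and 9852, and the Th17 libraries 8718 and 9990. This was 0.233% and 0.278% of all FPKM in naive cells, and 1.63% to 2.23% in effector cells. The sum leaves out *Gm5506*, a listed gene that shares sequence with *Eno1* (see enolase below). With it the shares were 0.298% and 0.352% in naive cells, and 1.99% to 2.61% in effector cells. In these bulk samples, fewer cells with a transcript and less of it per cell cannot be told apart.

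Differences were tested with limma on log2(FPKM + 1) across 11198 genes, and a call is a Benjamini-Hochberg adjusted p under 0.05. Against naive cells the Th1 libraries had 27 of the 34 genes higher and 3 lower, where 33.8% of all genes tested were higher and 33.5% lower. For Th2 cells the counts were 28 and 4 (31.8% and 38.7% of all genes), and for Th17 cells 27 and 4 (37.5% and 29.8%). The same 27 genes were higher in all 3 subsets, against 24.8% of genes tested, and *Eno3*, *Ldhb* and *Pdk2* were lower in all 3, against 23.8%. On the log2 scale the median difference over the 34 genes was 2.05 for Th1, 2.19 for Th2 and 2.30 for Th17. Over all genes tested the medians were -0.01, -0.11 and 0.08. Without overlap, 29 of the 34 genes had every effector library higher than the naive pair (30.5% of genes tested), and 4 had every one lower (31.1%). The 3 comparisons share the naive libraries.

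**Figure D1:**
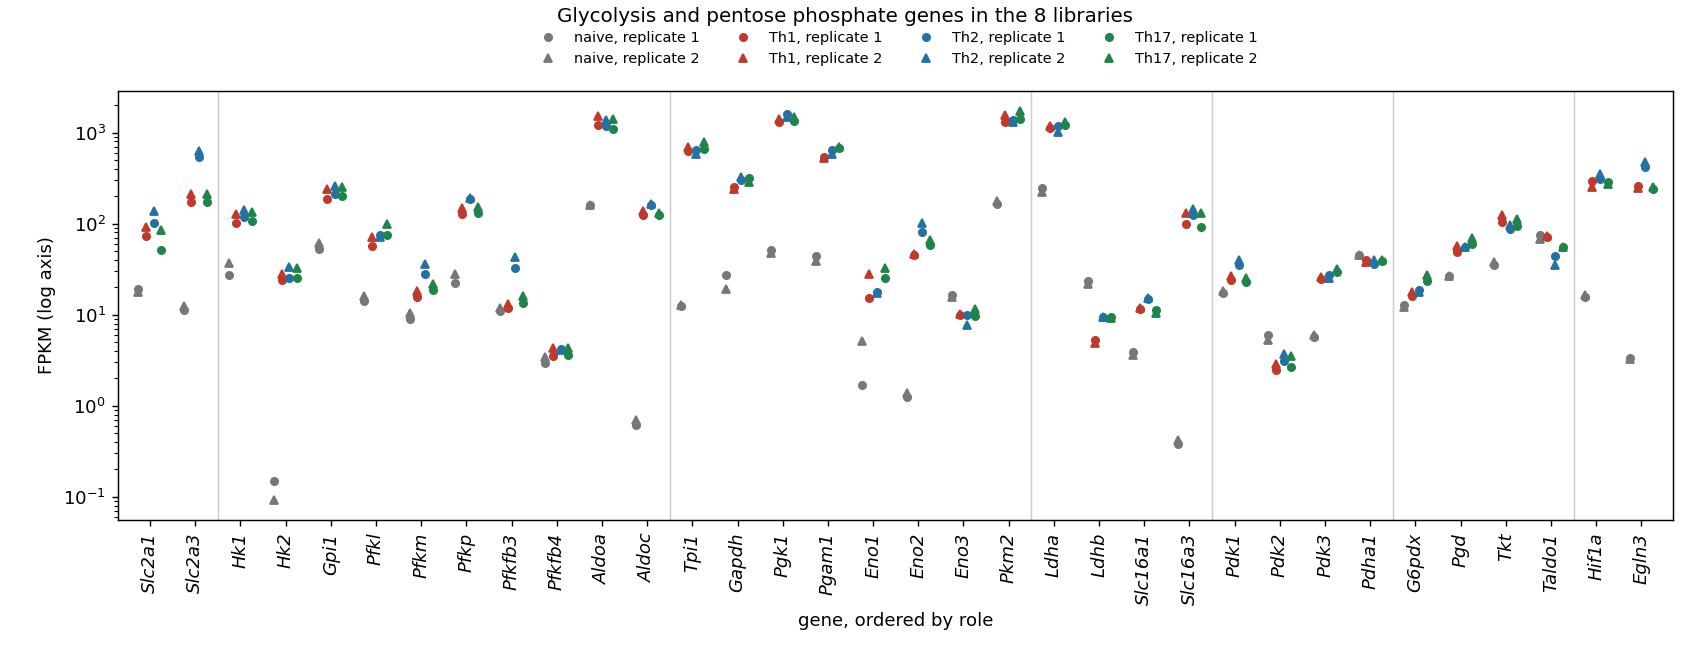
FPKM (log axis) of each gene in each of the 8 libraries, with genes ordered by role along the x axis. Grey points are naive libraries and colored points effector libraries, circles are replicate 1 and triangles replicate 2. *Slc16a3*, *Aldoc* and *Hk2* lie under 1 FPKM in naive cells and at 24.0 FPKM or more in every effector library.

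**Figure D2:**
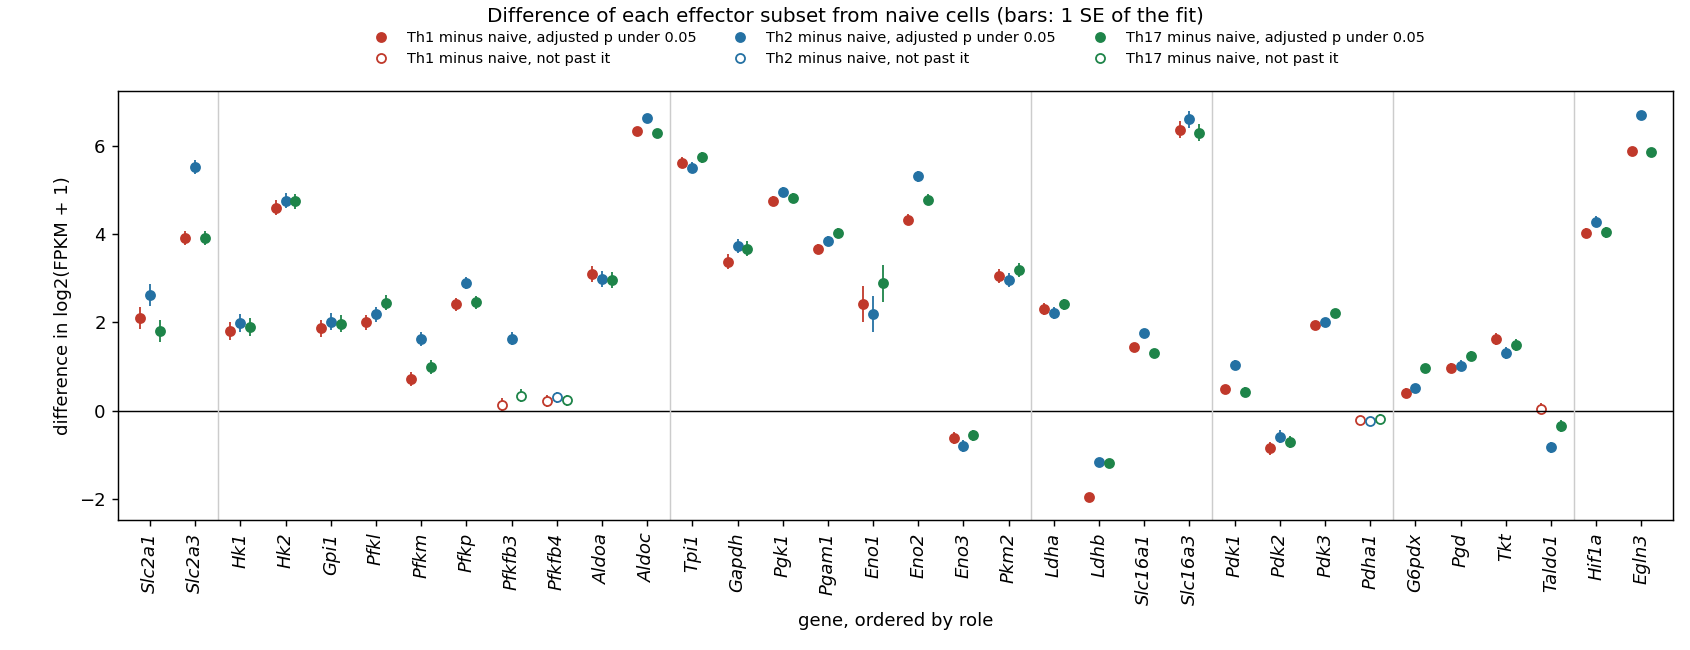
Difference of each subset from naive cells in log2(FPKM + 1), with bars of 1 SE from the fit. Filled points passed an adjusted p of 0.05 and open points did not. *Slc16a3*, *Aldoc* and *Egln3* show the largest rises. *Ldhb*, *Eno3*, *Pdk2* and, in Th2 and Th17 cells, *Taldo1* lie below 0 as filled points, and *Pdha1* as open points.

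Since most of the genes rose together, the 250 bases before their start sites were read for the HIF core. RefSeq (GRCm38.p6) gave a promoter for 33 of the 34 genes, and for 25 of these its start lay within 50 bases of the start of the listed locus. ACGTG or GCGTG, on either strand, occurred in 27 of the 33 windows (81.8%), in 58.6% of the windows of genes tested that have one and in 44.8% of all 15702 windows. For ACGTG alone the shares were 39.4%, 22.9% and 18.0%, and for CACGTG, which holds ACGTG on both strands, 15.2%, 9.0% and 6.9%. The median GC content was 61.2% in the 33 windows and 60.0% in those of genes tested. These are matches of letters, given without a test. The windows with neither core were those of *Aldoa*, *Eno2*, *Gpi1*, *Hk1*, *Pkm2* and *Tpi1*, all higher than naive in all 3 subsets. For *Eno2*, *Pkm2* and *Tpi1* the RefSeq start lay 164, 208 and 138 bases from the start of the listed locus. Some windows with a core were displaced too, such as that of *Slc16a3* (583 bases). *Eno3*, *Ldhb*, *Pdk2* and *Taldo1*, called lower than naive in some or all subsets, each had a core. The windows of *Ldha* (5 matches of ACGTG, the most of any of the genes), *Hk2*, *Pgk1* and *Egln3*, which rose, of *Aldoa*, which rose and had none, and of *Ldhb*, which fell and had 1 GCGTG, are shown 5′ to 3′ on the strand of the gene, with the matches in capitals.
*Ldha* (chr7:46845554-46845803, plus strand): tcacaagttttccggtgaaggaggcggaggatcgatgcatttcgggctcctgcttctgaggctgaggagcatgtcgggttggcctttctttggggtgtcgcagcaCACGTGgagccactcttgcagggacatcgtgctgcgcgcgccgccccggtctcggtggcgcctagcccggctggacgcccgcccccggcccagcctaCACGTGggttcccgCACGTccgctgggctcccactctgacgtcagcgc
*Hk2* (chr6:82774455-82774704, minus strand): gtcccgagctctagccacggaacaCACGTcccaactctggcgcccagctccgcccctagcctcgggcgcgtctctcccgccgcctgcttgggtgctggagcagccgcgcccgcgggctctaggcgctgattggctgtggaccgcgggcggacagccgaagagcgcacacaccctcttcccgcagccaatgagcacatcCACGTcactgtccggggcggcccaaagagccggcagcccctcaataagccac
*Pgk1* (chrX:106186850-106187099, plus strand): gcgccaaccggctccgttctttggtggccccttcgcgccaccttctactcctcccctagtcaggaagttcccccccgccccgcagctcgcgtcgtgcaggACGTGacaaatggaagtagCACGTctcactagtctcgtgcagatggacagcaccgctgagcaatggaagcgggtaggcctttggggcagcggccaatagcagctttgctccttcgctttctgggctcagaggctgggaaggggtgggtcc
*Egln3* (chr12:54203875-54204124, minus strand): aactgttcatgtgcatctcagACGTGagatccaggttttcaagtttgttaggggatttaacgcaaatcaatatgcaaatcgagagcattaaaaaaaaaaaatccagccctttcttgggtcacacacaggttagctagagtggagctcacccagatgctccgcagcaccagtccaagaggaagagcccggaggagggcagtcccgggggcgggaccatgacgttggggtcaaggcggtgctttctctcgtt
*Aldoa* (chr7:126800448-126800697, minus strand): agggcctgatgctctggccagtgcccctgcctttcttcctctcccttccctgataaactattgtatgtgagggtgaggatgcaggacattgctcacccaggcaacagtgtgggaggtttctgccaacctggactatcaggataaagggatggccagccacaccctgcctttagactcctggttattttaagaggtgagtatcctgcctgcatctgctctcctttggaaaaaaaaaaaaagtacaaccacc
*Ldhb* (chr6:142507958-142508207, minus strand): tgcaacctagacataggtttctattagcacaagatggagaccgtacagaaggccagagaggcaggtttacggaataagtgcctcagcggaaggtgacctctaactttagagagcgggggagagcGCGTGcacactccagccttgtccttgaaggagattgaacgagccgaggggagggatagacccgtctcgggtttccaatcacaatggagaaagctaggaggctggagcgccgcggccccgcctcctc

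Of the glucose transporters, *Slc2a3* (GLUT3, the high-affinity carrier) rose far more than *Slc2a1* (GLUT1). *Slc2a3* was at 11.2 and 12.4 FPKM in the naive libraries, 175 and 209.6 in the Th1 libraries, 544 and 636 in the Th2 libraries and 171 and 213 in the Th17 libraries. The 3 effector groups lay apart from naive cells, and Th2 cells lay above the others with no overlap. The differences from naive cells were 3.91 ± 0.16 (SE) for Th1, 5.52 ± 0.16 (SE) for Th2 and 3.90 ± 0.16 (SE) for Th17 on the log2 scale, with adjusted p-values of 1.54e-06, 3.39e-07 and 1.38e-06. In mean FPKM this was 16.3 times, 49.9 times and 16.2 times the naive level. *Slc2a1* stood at 19.3 and 17.5 FPKM in the naive libraries, 73.1 and 92.3 in the Th1 libraries, 102 and 137 in the Th2 libraries and 51.8 and 85.9 in the Th17 libraries. Its means were 4.49, 6.48 and 3.74 times the naive mean, and replicate 2 was above replicate 1 in each effector group.

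The hexokinase step changed in its isoforms. *Hk2*, the inducible isoform that binds mitochondria, was almost absent from naive cells, at 0.148 and 0.091 FPKM, and reached 24.0 and 28.0 in the Th1 libraries, 25.6 and 33.4 in the Th2 libraries and 25.6 and 32.9 in the Th17 libraries. The naive values rest on between about 11 and 18 fragments per library, so that the ratio of means (218 to 247) is loosely set, while the differences of 4.59 ± 0.17 (SE), 4.76 ± 0.17 (SE) and 4.75 ± 0.17 (SE) on the log2(FPKM + 1) scale understate it. *Hk1*, the constitutive isoform, rose from 27.2 and 37.3 FPKM to between 101 and 141, and stayed the more abundant of the pair. *Gpi1*, which converts glucose-6-phosphate to fructose-6-phosphate, rose from 52.6 and 61.6 FPKM to between 185 and 258.

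Phosphofructokinase commits sugar to glycolysis, and its 3 subunit genes all rose. *Pfkp*, the platelet-type subunit, was at 22.3 and 27.7 FPKM in naive and 126 to 193 in effector libraries. *Pfkl*, the liver type, went from 14.2 and 16.2 to between 56.3 and 99.6 FPKM. *Pfkm*, the muscle type, was at 9.07 and 10.5 FPKM in the naive libraries, 15.4 and 18.2 in the Th1 libraries, 28.2 and 36.3 in the Th2 libraries and 18.6 and 21.9 in the Th17 libraries. The rise of *Pfkm* was 0.73 ± 0.16 (SE) in Th1, 1.62 ± 0.16 (SE) in Th2 and 0.98 ± 0.16 (SE) in Th17 cells, with Th2 libraries above all others.

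The PFKFB enzymes set the level of fructose-2,6-bisphosphate, the activator of phosphofructokinase. *Pfkfb3* was at 10.9 and 11.9 FPKM in the naive libraries, 12.0 and 13.2 in the Th1 libraries, 32.7 and 42.9 in the Th2 libraries and 13.6 and 15.9 in the Th17 libraries. It was higher than in naive cells in Th2 cells (1.63 ± 0.15 (SE), adjusted p = 6.19e-05). In Th1 cells the difference was 0.13 ± 0.15 (SE) (adjusted p = 0.46) and in Th17 cells 0.34 ± 0.15 (SE) (adjusted p = 0.0777, and 0.0142 with the replicate number as a block). *Pfkfb4* stood at 2.94 and 3.43 FPKM in naive cells and 3.48 to 4.30 in effector cells and passed the test in no subset. It was called higher in Th2 cells with the block (adjusted p = 0.0324) and after median scaling (0.413, adjusted p = 0.0162).

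Aldolase splits the 6-carbon sugar. *Aldoa* rose from 159 and 161 FPKM to between 1102 and 1541, by 2.95 ± 0.18 (SE) in Th17 to 3.09 ± 0.18 (SE) in Th1 cells. *Aldoc*, known as the brain isoform, was at 0.612 and 0.703 FPKM in the naive libraries, 124 and 139 in the Th1 libraries, 162 and 163 in the Th2 libraries and 125 and 131 in the Th17 libraries. Its difference of 6.29 ± 0.09 (SE) to 6.62 ± 0.09 (SE) was among the largest of the pathway, although its level stayed well under the *Aldoa* level.

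Every lower-glycolysis gene but *Eno3* was higher in all 3 subsets. *Tpi1* (triosephosphate isomerase) was at 12.5 and 12.8 FPKM in the naive libraries, 636 and 699.7 in the Th1 libraries, 643 and 589 in the Th2 libraries and 664 and 797 in the Th17 libraries, a difference of 5.50 ± 0.13 (SE) to 5.74 ± 0.13 (SE). *Pgk1*, which makes the first ATP of the pathway, was at 51.2 and 47.6 FPKM in the naive libraries, 1299 and 1409 in the Th1 libraries, 1596 and 1502 in the Th2 libraries and 1356 and 1484 in the Th17 libraries. Both differences were larger than those of *Aldoa*, *Pkm2* and *Ldha*, with ratios of means of 48.8 to 57.8 for *Tpi1* and 27.4 to 31.4 for *Pgk1*. *Pgam1* (phosphoglycerate mutase) was at 43.6 and 38.9 FPKM in the naive libraries, 539 and 529 in the Th1 libraries, 641 and 575 in the Th2 libraries and 679 and 689 in the Th17 libraries. *Gapdh* went from 27.0 and 19.1 FPKM to between 241 and 324, and *Pkm2* from 166 and 178 to between 1314 and 1749.5. *Gapdh* and *Pgk1* are often used as reference genes, and here they rose by 3.38 ± 0.17 (SE) to 3.72 ± 0.17 (SE) and by 4.75 ± 0.12 (SE) to 4.94 ± 0.12 (SE) on the log2 scale.

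Enolase was measured with a limit. *Eno2*, known as the neuronal enolase, was at 1.26 and 1.37 FPKM in the naive libraries, 44.9 and 46.0 in the Th1 libraries, 81.0 and 101 in the Th2 libraries and 58.5 and 66.6 in the Th17 libraries, with Th2 libraries highest and naive libraries lowest. *Eno3*, the muscle isoform, fell, from 16.6 and 15.6 FPKM in naive cells to 9.91 and 10.3 in the Th1 libraries, 9.92 and 7.80 in the Th2 libraries and 9.79 and 11.5 in the Th17 libraries. *Eno1*, the isoform of most tissues, was listed at only 1.68 and 5.15 FPKM in naive and 15.3 to 32.7 in effector cells. *Gm5506*, which RefSeq names *Eno1b* and which holds 48.4% of the 50-base words of *Eno1* transcripts, was listed at 325 and 309 FPKM in naive, 1864 and 2075 in the Th1 libraries, 1728 and 1653 in the Th2 libraries, and 1762 and 2088 in the Th17 libraries. *Gm5506* was thus above every one of the 34 genes in every library. Reads of this length within the shared words cannot be told apart between the 2 genes. With both rows summed, an alternative added after the values were seen, the differences of Th1, Th2 and Th17 cells from naive cells were 2.63, 2.41 and 2.60, where *Eno1* alone gave 2.41 ± 0.41 (SE), 2.19 ± 0.41 (SE) and 2.88 ± 0.41 (SE).

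Near-identical copies touch other genes too. Of the 34 genes, 16 share under 1% of their 50-base words with any other gene of GENCODE vM21, among them *Slc2a3*, *Hk2*, *Aldoc*, *Eno2*, *Slc16a3* and *Egln3*. The share was 68.0% for *Pgk1*, 58.4% for *Gapdh*, 41.5% for *Pgam1*, 24.4% for *Gpi1*, 23.7% for *Pkm2* and 21.0% for *Ldhb*, largely with processed pseudogenes, and their levels are uncertain to that extent. *Pdha1* (16.9%) and *Pfkp* (15.4%) share words with *Map3k15* and *Pitrm1*, which overlap them on the opposite strand. The library kit is stranded in the labels and not in the methods, so such reads could count for either gene. *Map3k15* was at 0.12 to 0.44 FPKM, and *Pitrm1* at 16.4 and 17.7 in naive and 8.36 to 29.3 in effector cells. *G6pdx* (10.5%) shares words with *G6pd2* and with *Ikbkg*, which overlaps it on the opposite strand. *G6pd2* was at 4.76 and 5.30 FPKM in naive and 7.11 to 11.8 in effector cells, highest in the Th17 libraries. For *Taldo1* and *Ldha* the share was 10.7% and 10.4%.

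In lactate formation *Ldha* rose and *Ldhb* fell in all 3 subsets, and both transporter genes of lactate export rose. *Ldha*, the isoform that favors lactate, was at 249 and 221 FPKM in the naive libraries, 1132 and 1185 in the Th1 libraries, 1177 and 1003 in the Th2 libraries and 1202 and 1292 in the Th17 libraries. *Ldhb*, the isoform that favors pyruvate, was at 23.4 and 21.5 FPKM in the naive libraries, 5.33 and 4.85 in the Th1 libraries, 9.47 and 9.38 in the Th2 libraries and 9.40 and 9.30 in the Th17 libraries. The naive libraries were lowest for *Ldha* and highest for *Ldhb*, and Th1 libraries were the lowest for *Ldhb*. *Ldha* rose by 2.21 ± 0.13 (SE) to 2.40 ± 0.13 (SE) on the log2 scale. *Ldhb* differed by -1.95 ± 0.09 (SE) in Th1, -1.17 ± 0.09 (SE) in Th2 and -1.18 ± 0.09 (SE) in Th17 cells, with adjusted p-values of 2.68e-06, 2.56e-05 and 2.57e-05. The lactate exporter *Slc16a3* (MCT4) was at 0.38 and 0.422 FPKM in the naive libraries, 100.2 and 131 in the Th1 libraries, 125 and 145 in the Th2 libraries and 91.0 and 129.9 in the Th17 libraries. Its naive level rests on between about 17 and 19 fragments per library. On the log2(FPKM + 1) scale it rose by 6.36 ± 0.20 (SE), 6.60 ± 0.20 (SE) and 6.29 ± 0.20 (SE) in Th1, Th2 and Th17 cells. *Slc16a1* (MCT1), which carries lactate both ways, rose less, from 3.85 and 3.63 FPKM to between 10.4 and 15.2.

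Pyruvate dehydrogenase admits pyruvate to the mitochondria, and its kinases (PDK) switch it off. *Pdha1*, the catalytic subunit, was at 45.0 and 44.8 FPKM in naive and 35.8 to 40.4 in effector libraries and passed the test in no subset (differences of -0.23 ± 0.09 (SE) to -0.18 ± 0.09 (SE)); with the block it was lower in Th2 cells (adjusted p = 0.0384). After quantile normalization *Pdha1* was lower in Th1 (-0.33, adjusted p = 0.0162) and Th17 cells (-0.33, adjusted p = 0.0161). *Pdk1*, the kinase known as a HIF target, was at 17.4 and 18.1 FPKM in the naive libraries, 24.2 and 26.4 in the Th1 libraries, 35.3 and 39.8 in the Th2 libraries and 22.9 and 25.6 in the Th17 libraries. *Pdk3* rose from 5.69 and 5.99 FPKM to between 24.5 and 31.5. *Pdk2* went the other way, from 6.04 and 5.26 FPKM in naive cells to 2.49 and 2.87 in the Th1 libraries, 3.13 and 3.72 in the Th2 libraries and 2.65 and 3.52 in the Th17 libraries.

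The pentose phosphate genes moved less. The oxidative arm, *G6pdx* and *Pgd*, makes NADPH. *G6pdx*, the entry enzyme, was at 12.9 and 12.3 FPKM in the naive libraries, 16.0 and 17.9 in the Th1 libraries, 18.9 and 17.8 in the Th2 libraries and 23.7 and 27.2 in the Th17 libraries, with Th17 libraries highest. *Pgd* rose from 26.6 and 26.7 FPKM to between 48.9 and 69.9. The non-oxidative arm links back to glycolysis, and its 2 genes parted. *Tkt* (transketolase) rose from 34.7 and 37.8 FPKM to between 87.1 and 125, while *Taldo1* (transaldolase) was at 74.7 and 67.1 FPKM in the naive libraries, 72.2 and 73.9 in the Th1 libraries, 44.4 and 34.8 in the Th2 libraries and 55.6 and 55.5 in the Th17 libraries. *Taldo1* was lower than in naive cells in Th2 (-0.83 ± 0.13 (SE), adjusted p = 0.000972) and Th17 cells (-0.34 ± 0.13 (SE), adjusted p = 0.0489), and differed by 0.04 ± 0.13 (SE) (adjusted p = 0.774) in Th1 cells. The Th17 call was lost without each naive, Th1 and Th17 library in turn, at differences of -0.421 to -0.268. It was also lost with no filter on low values (adjusted p = 0.0962) and under other settings given below.

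Both oxygen sensing genes rose. *Hif1a* was at 15.7 and 16.4 FPKM in the naive libraries, 297 and 254 in the Th1 libraries, 307 and 354 in the Th2 libraries and 286 and 270.2 in the Th17 libraries, a rise of 4.02 ± 0.12 (SE) to 4.28 ± 0.12 (SE). *Egln3*, a HIF prolyl hydroxylase gene that HIF itself induces, was at 3.37 and 3.27 FPKM in the naive libraries, 259 and 247 in the Th1 libraries, 416 and 474 in the Th2 libraries and 242 and 254 in the Th17 libraries. Its rise was 5.88 ± 0.10 (SE) in Th1, 6.69 ± 0.10 (SE) in Th2 and 5.85 ± 0.10 (SE) in Th17 cells, and the Th2 libraries lay above all others.

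The order of abundance differed between naive and effector cells. In naive cells the highest means were those of *Ldha* (235 FPKM), *Pkm2* (172) and *Aldoa* (160.1), followed by *Taldo1* (70.9) and *Gpi1* (57.1). In effector cells *Pkm2*, *Aldoa*, *Pgk1* and *Ldha* held the first 4 places, at means of 1090.3 to 1580.0 FPKM. Among these 4 the order differed between subsets and many neighbours lay within their SD, such as *Aldoa* (1378 ± 231 SD) and *Pgk1* (1354 ± 77.7 SD) in Th1 cells, n = 2 each.

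Shares within gene families put these shifts on one scale. *Slc16a3* made up 9.0% and 10.4% of the FPKM of its pair with *Slc16a1* in naive cells and 89.0% to 92.6% in effector cells. *Slc2a3* went from 36.7% and 41.5% of its pair to 69.4% to 84.2%. *Hk2* rose from 0.54% and 0.24% of hexokinase FPKM to between 17.9% and 19.6%, and *Aldoc* from 0.38% and 0.44% of aldolase to between 8.3% and 12.2%. *Ldhb* fell from 8.60% and 8.86% of lactate dehydrogenase to between 0.41% and 0.93%. Among the kinases of pyruvate dehydrogenase, *Pdk3* rose from 19.5% and 20.4% to between 37.0% and 53.4%, while *Pdk2* went from 20.7% and 18.0% to between 4.74% and 5.81%. In phosphofructokinase *Pfkp* rose from 48.9% and 51.0% to between 55.5% and 64.7%. For *Pfkl*, *Pfkfb3*, *Pfkfb4* and *Eno1* the naive and effector shares overlapped. *Eno3* held 84.9% and 70.6% of the 3 listed enolases in naive cells and 6.20% to 14.1% in effector cells, but with *Gm5506* included it held 4.80% and 4.71% against 0.44% to 0.54%. These shares were not tested.

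**Figure D3:**
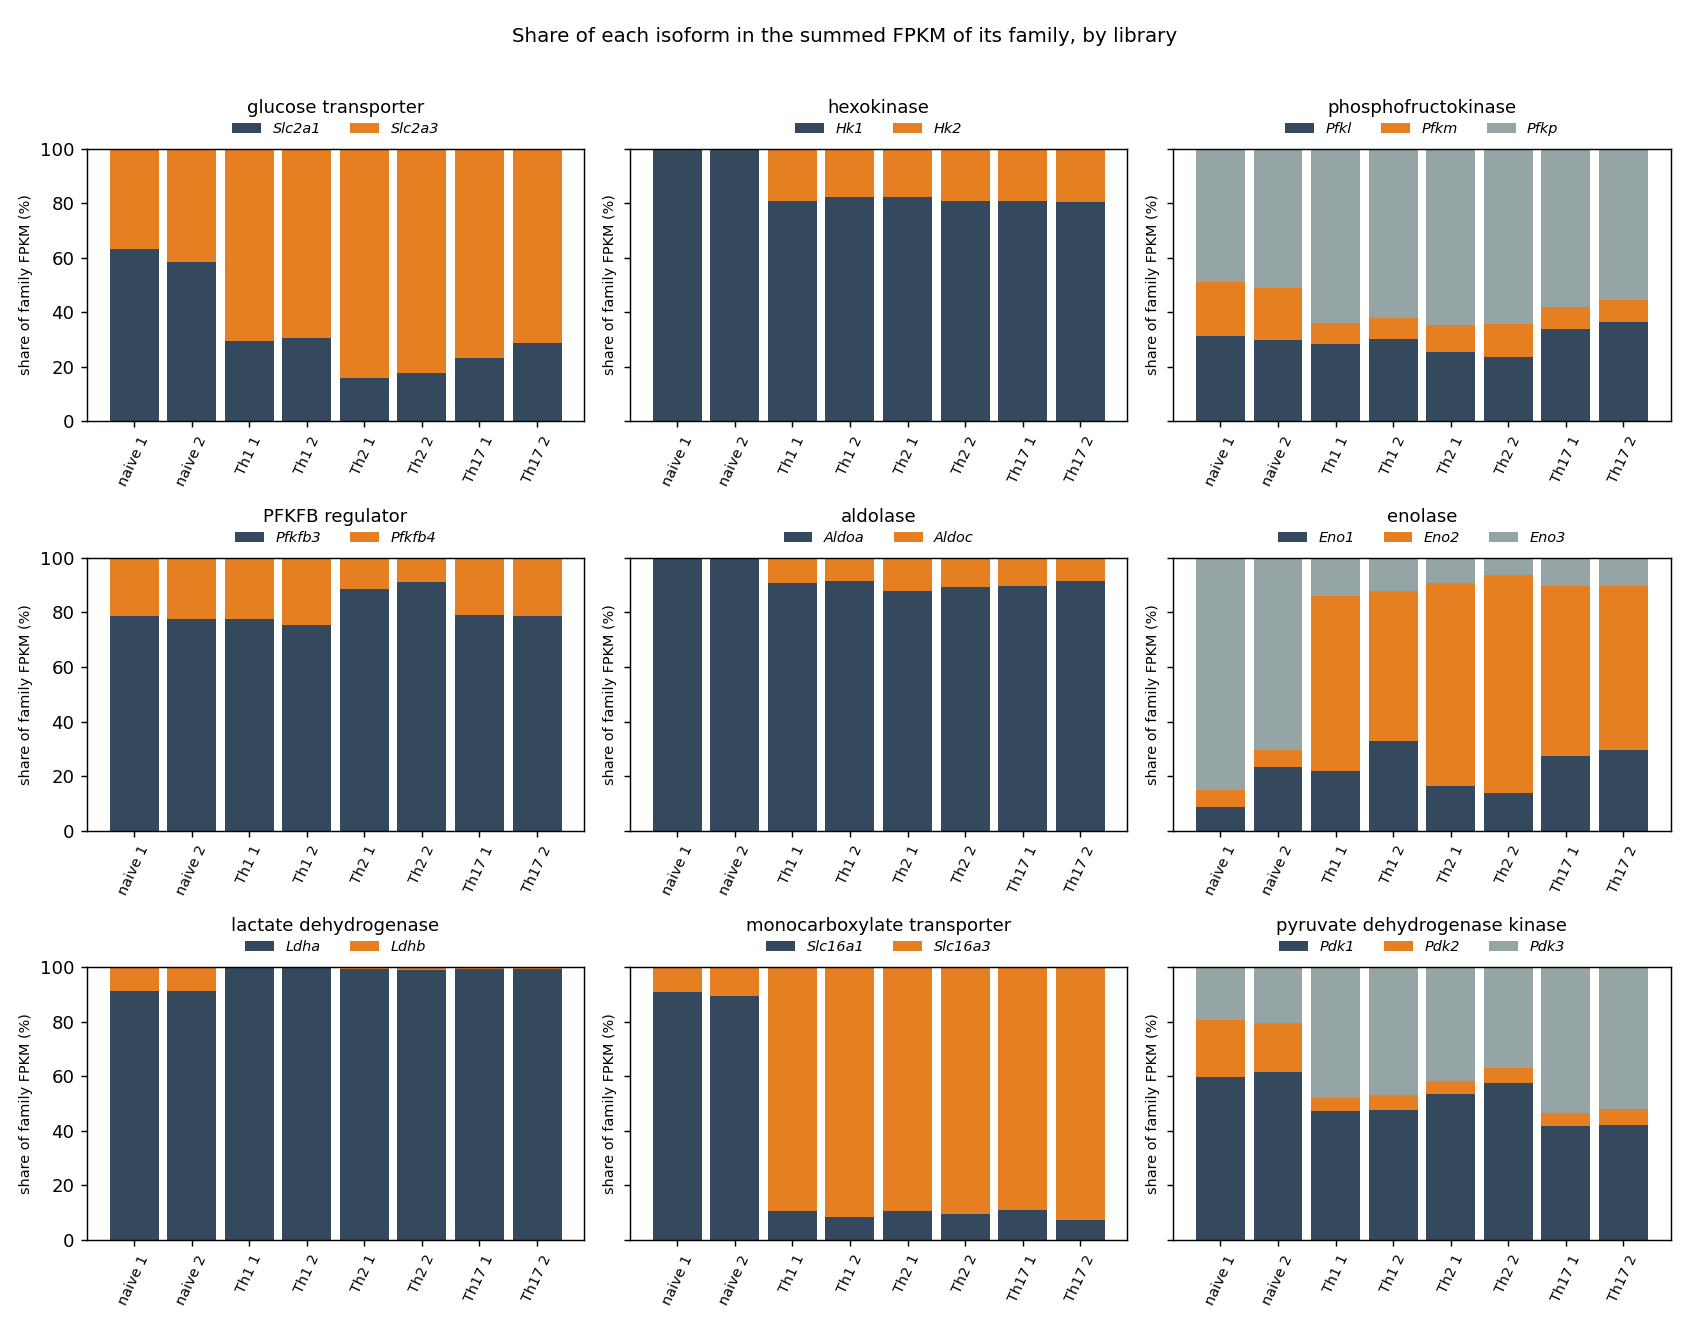
Share (%) of each isoform in the summed FPKM of its gene family, one stacked bar per library, with the replicate number after the group. The monocarboxylate transporter pair turns from 9.0% and 10.4% *Slc16a3* in naive cells to 89.0% or more in every effector library. The enolase bars leave out *Gm5506*.

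Between subsets the pathway was much more alike, and most of the differences set Th2 cells apart. Of the 34 genes, 13 passed the test between some pair of subsets, against 59.9% of all genes tested. Th1 cells had 1 gene higher and 10 lower than Th2 cells (27.4% and 16.9% of all genes), and Th17 cells 2 higher and 10 lower than Th2 cells (31.7% and 12% of all genes). After median scaling the latter split was 0 higher and 11 lower, and for Th1 against Th17 cells it was 1 higher and 2 lower. The 9 genes *Slc2a3*, *Pfkm*, *Pfkp*, *Pfkfb3*, *Aldoc*, *Eno2*, *Slc16a1*, *Pdk1* and *Egln3* were higher in Th2 cells than in both other subsets, or 26.5% of the 34 against 8.94% of all genes tested. With 1 library left out, 4 to 8 of these 9 kept both calls (4 without Th2 replicate 2 and 5 without Th17 replicate 1), and *Slc2a3*, *Pfkfb3*, *Pdk1* and *Egln3* kept both whichever library was left out. *Taldo1* alone was lower in Th2 cells than in both, against 19.3% of all genes, and its call against Th17 was lost without Th2 replicate 2 or either Th17 library (adjusted p of 0.0788 to 0.0958). The median difference of all genes was 0.11 for Th1 minus Th2 and 0.18 for Th17 minus Th2, opposite in sign to these 9 genes. *Taldo1* against Th17 also lost its call after median scaling (adjusted p = 0.0939) or quantile normalization (adjusted p = 0.0643). The same held with no filter on low values (adjusted p = 0.0552) and in a fit of only the 2 groups (adjusted p = 0.0521). The *G6pdx* call, higher in Th17 than in Th2 cells, was lost after median scaling (adjusted p = 0.0528).

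*Slc2a3* differed most, by -1.61 ± 0.16 (SE) for Th1 minus Th2 (adjusted p = 0.000287) and -1.62 ± 0.16 (SE) for Th17 minus Th2 (adjusted p = 0.000414). *Pfkfb3* followed, at -1.50 ± 0.15 (SE) and -1.29 ± 0.15 (SE) (adjusted p = 0.000302 and 0.000831). *Eno2* differed by -0.97 ± 0.12 (SE) and -0.53 ± 0.12 (SE), *Pfkm* by -0.89 ± 0.16 (SE) and -0.64 ± 0.16 (SE), and *Egln3* by -0.81 ± 0.10 (SE) and -0.84 ± 0.10 (SE). In these 5 genes both Th2 libraries lay above all 4 other effector libraries. Of these, *Eno2* and *Pfkm* lost their call against Th17 without Th2 replicate 2 or Th17 replicate 1, at adjusted p of 0.0714 to 0.0804 and 0.0879 to 0.0947. Calls of other genes were lost too when 1 library was left out. *Slc2a1* (Th17 minus Th2, -0.81 ± 0.26 (SE)) was lost without each library in turn but Th17 replicate 2, with adjusted p of 0.053 to 0.208. *Aldoc* against Th1 was lost without each of the 8 libraries, at adjusted p of 0.0509 to 0.189, and *Pfkp* against Th1 without each of the 4 Th1 and Th2 libraries, at 0.0545 to 0.159. Against Th17, *Aldoc* was lost without each Th2 and Th17 library (0.072 to 0.107) and *Pfkp* without each of the 6 effector libraries (0.0558 to 0.194). *Slc16a1* against Th1 was lost without each Th1 and Th2 library (0.0535 to 0.0924).

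**Figure D4:**
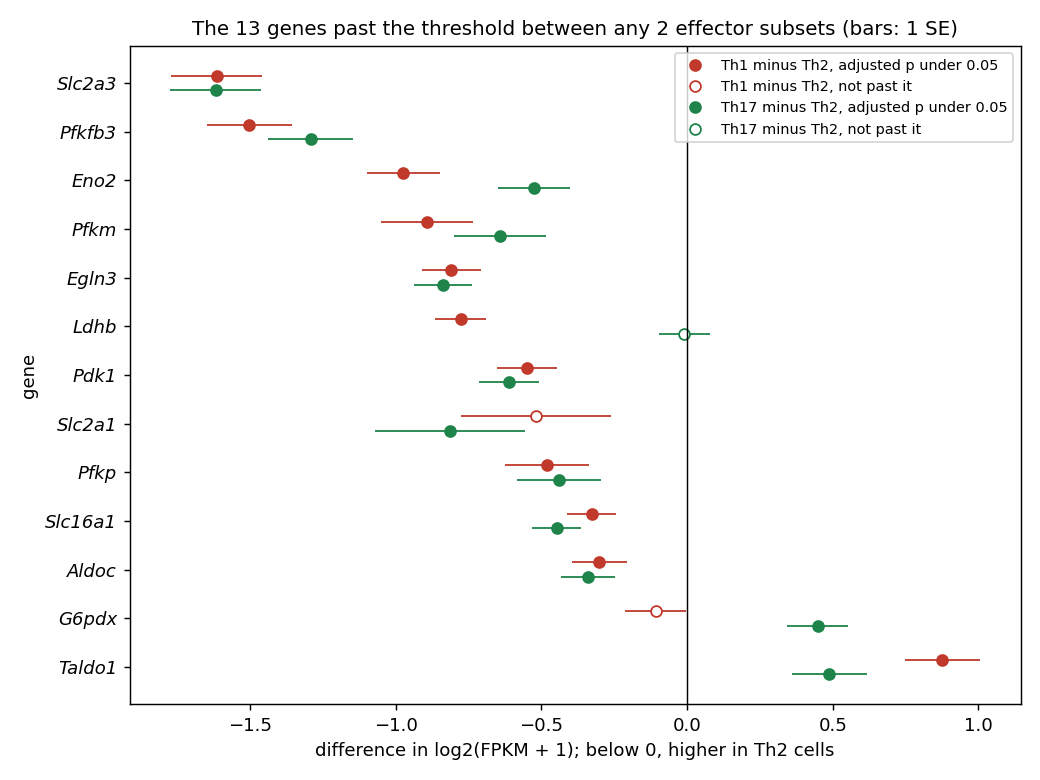
Difference of Th1 (red) and Th17 (green) from Th2 cells in log2(FPKM + 1) for the 13 genes past the threshold between some pair of subsets, with bars of 1 SE. Filled points passed an adjusted p of 0.05 and open points did not. *Slc2a3* and *Pfkfb3* lie farthest toward Th2, and *Taldo1* lies on the other side.

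Th1 and Th17 cells differed in 3 genes, all lower in Th1 cells (16% of all genes were lower, and 9.17% higher). *Ldhb* differed by -0.77 ± 0.09 (SE) (adjusted p = 0.00105), *G6pdx* by -0.56 ± 0.10 (SE) (adjusted p = 0.00926) and *Eno2* by -0.45 ± 0.12 (SE) (adjusted p = 0.0402). The *Eno2* call was lost without each naive, Th1 and Th17 library (adjusted p of 0.0579 to 0.202), and the *G6pdx* call without Th1 replicate 1 or Th17 replicate 2 (0.0652 to 0.0668). With limma 0 of the 34 genes were higher in Th1 than in Th17 cells, and 1 was at an unadjusted p under 0.05. With the replicate block 6 were lower and 1 higher. *Pfkl*, *Pfkm* and *Pgam1* were then lower in Th1 cells (adjusted p = 0.0389, 0.0454 and 0.0263) and *Taldo1* higher (adjusted p = 0.0377). *Tkt* was higher in Th1 than in Th2 cells with the block (adjusted p = 0.0154), where the fit without it gave 0.32 ± 0.14 (SE) and an adjusted p of 0.106.

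Replicate 2 was above replicate 1 for 28 of the 34 genes in Th1, 29 in Th17, 20 in Th2 and 20 in naive cells. For all genes tested the share was 60.5%, 62.5%, 46.7% and 50.8%. The median difference of replicate 2 from replicate 1 over the 34 genes was 0.15 in Th1 and 0.21 in Th17 cells on the log2 scale. Whether the genes differ from the rest in this was not tested.

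Other genes near the pathway were read from lists, to be set beside the shares of all genes tested, of which 33.8% were higher and 33.5% lower than in naive cells in Th1, 31.8% and 38.7% in Th2 cells, and 37.5% and 29.8% in Th17 cells. Of 6 further glucose and lactate transport genes tested, 5 were higher and 0 lower in Th1, 4 higher and 2 lower in Th2, and 4 higher and 1 lower in Th17 cells than in naive cells (4 and 1 in Th2 cells after median scaling, and 3 higher in Th1 cells after quantile normalization). Their median differences were 0.76, 0.99 and 1.18, against -0.01, -0.11 and 0.08 for all genes tested. *Bsg*, the chaperone of the lactate transporters, was at 64.6 and 61.4 FPKM in naive cells, 407 and 446 in the Th1 libraries, 653 and 666 in the Th2 libraries, and 454 and 509 in the Th17 libraries. *Slc2a6* reached 11.1 and 13.7 FPKM in Th17 cells and was at 2.04 or less in all other libraries. Of 13 genes of glycogen, hexosamine and polyol metabolism, 8 were higher in Th1 and 10 in Th2 and Th17 cells, with 1 lower in each (2 in Th1 cells after quantile normalization), and the medians were 0.46, 0.67 and 0.97. *Gbe1* (glycogen branching enzyme) rose from 3.53 and 3.27 FPKM to between 46.9 and 104, and *Gys1* (glycogen synthase) from 3.75 and 4.38 to between 26.5 and 52.4. *Pygl* (glycogen phosphorylase) rose too, from 0.25 and 0.18 FPKM to between 9.29 and 16.2.

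Of 7 gluconeogenic genes listed, 3 were at 0 FPKM in every library, and only *Pcx*, *Pck2* and *G6pc3* were tested. *Fbp1*, *Fbp2*, *Pck1* and *G6pc* were not. All 3 genes tested were higher in each subset (median differences for Th1, Th2 and Th17 cells of 1.25, 1.53 and 1.47). *Pcx* (pyruvate carboxylase) rose most, from 0.77 and 0.69 FPKM in naive cells to 19.9 and 22.1 in the Th1 libraries, 41.1 and 46.0 in the Th2 libraries, and 30.9 and 36.4 in the Th17 libraries. Of 10 other pentose phosphate genes, 2 were higher and 5 lower in Th1, 2 higher and 8 lower in Th2, and 2 higher and 4 lower in Th17 cells, with medians of -0.36, -0.49 and -0.30. After median scaling or quantile normalization 2 were higher and 4 lower in Th2 cells. *Pgls*, the second enzyme of the oxidative arm, rose from 35.5 and 33.9 FPKM to between 69.0 and 98.7, and *Prpsap2*, which regulates phosphoribosyl pyrophosphate synthesis, went from 16.8 and 15.8 to between 5.35 and 9.22. Of 14 other glycolytic isoforms and side enzymes, 4, 7 and 4 were higher and 6, 7 and 5 lower in Th1, Th2 and Th17 cells (medians -0.17, 0.04 and -0.01). *Pgm2* rose from 12.9 and 12.7 FPKM to between 80.6 and 139.9, and *Adpgk*, an ADP-dependent glucokinase, went from 41.6 and 34.7 to 7.36 and 6.02 in Th2 cells. Of 9 genes for pyruvate entry to mitochondria, 0, 1 and 1 were higher and 1, 5 and 1 lower in Th1, Th2 and Th17 cells (medians -0.10, -0.22 and 0.08). After median scaling 2 were higher and 2 lower in Th2 cells, and 0 higher and 1 lower in Th17 cells, and after quantile normalization 2 and 4, and 0 and 2.

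Most of the hypoxia-responsive genes outside glycolysis were higher in effector cells. Of 22, all tested, 17 were higher and 0 lower in Th1 cells, 20 higher and 0 lower in Th2 cells, and 17 higher and 1 lower in Th17 cells than in naive cells (16 and 3 in Th17 cells, and 1 lower in Th1 cells, after quantile normalization). The medians were 1.93, 2.74 and 2.69, against -0.01, -0.11 and 0.08 for all genes tested. Between subsets 2 were higher and 14 lower in Th1 than in Th2 cells, and 4 higher and 11 lower in Th17 than in Th2 cells, where all genes tested had 27.4% and 16.9%, and 31.7% and 12%. *Bnip3* was at 2.53 and 1.78 FPKM in naive cells, 188 and 155 in the Th1 libraries, 243 and 256 in the Th2 libraries, and 173 and 151 in the Th17 libraries. Of 12 other HIF regulators tested, 5 were higher and 3 lower in Th1 cells, 6 higher and 3 lower in Th2 cells, and 7 higher and 2 lower in Th17 cells, with medians of 0.09, 0.42 and 0.30. In Th1 cells these counts lie near the shares of all genes tested. After median scaling these were 7 and 2 in Th2, and 5 and 3 in Th17 cells. *Epas1*, which encodes HIF-2α, was at 75.9 and 79.4 FPKM in Th2 cells and at 1.89 or less in the 6 other libraries. *Egln1*, the main HIF hydroxylase gene, went from 21.6 and 19.7 FPKM in naive cells to 103 and 112 in Th2 cells and 63.5 to 73.9 in Th1 and Th17 cells.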

How the data were processed

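The data are 8 RNA sequencing libraries, 2 for naive CD4 T cells and 2 for each of the effector subsets, with groups taken from the sample titles. The authors aligned reads to mm10 with TopHat 1.3.2 and Bowtie 0.12.8 and computed FPKM per gene with Cufflinks 2.0.2 (versions from the submitters' processing notes). The deposited FPKM tables give a level with its confidence interval and status for each gene and library, and the gene annotation is not given in the sources used here. The kit is named as stranded in the labels and as unstranded in the methods. FPKM holds no read counts, so a count model was not used. Depth (14463466 to 21058286 fragments) was estimated from the width of the intervals, on the assumption that it reflects counting error only.

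Rows of one symbol were summed. The 11198 genes whose FPKM averaged 1 or more were tested as log2(FPKM + 1), a scale that understates changes of low genes, in one fit of the 4 group means with limma 3.58.1 (R 4.3.3, lmFit and eBayes with trend). Tests were two-sided and adjusted by the Benjamini-Hochberg method over all genes tested. The 34 genes and all lists were chosen with earlier results of these data known. Every one of the 34 may be named, values per library are given for those with the largest differences, falls, subset differences or shifts of isoform share, and *Pgk1*, *G6pdx* and a few more are given so for their role. From each pathway list up to 3 genes with the largest difference from naive cells could be named.

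Same-numbered libraries deviated together, with correlations of 0.138 to 0.294 over the 6 pairs of groups. The numbers come from the sample titles and were treated as pairing the libraries only in the fit with a replicate block. That fit is given where it changes a call, and the main fit holds the group alone. Alternatives were another pseudocount, other filters, median scaling, quantile normalization, fits of only the groups compared, no trend, the block, other row choices, and each library left out. Copies were counted as shared 50-base words in GENCODE vM21 transcripts, and promoters are from RefSeq GRCm38.p6. Tables and plots used Python 3.11.15, pandas 2.3.3, numpy 2.4.6 and matplotlib 3.10.9.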

Additional observations from a re-analysis of the deposited data

Results flagged for a closer look

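The difference from naive cells was not the same in all subsets for 13 genes, by the limma test of the difference between subsets. Toward Th2 cells, *Slc2a3* differed by -1.62 (Th17 minus Th2, adjusted p = 0.000414), *Pfkfb3* by -1.50 (Th1 minus Th2, adjusted p = 0.000302), *Eno2* by -0.97 (Th1 minus Th2, adjusted p = 0.00106), *Pfkm* by -0.89 (Th1 minus Th2, adjusted p = 0.00429) and *Egln3* by -0.84 (Th17 minus Th2, adjusted p = 0.00102). *Pdk1* (-0.61, adjusted p = 0.00411), *Slc16a1* (-0.45, adjusted p = 0.00593), *Slc2a1* (-0.81, adjusted p = 0.0403) and *Aldoc* (-0.34, adjusted p = 0.0258) were lower in Th17 than in Th2 cells. *Pfkp* differed by -0.48 (adjusted p = 0.0325) and *Ldhb* by -0.78 (adjusted p = 0.000596) for Th1 minus Th2, while *Taldo1* was higher in Th1 than in Th2 cells by 0.88 (adjusted p = 0.00193). *G6pdx* was lower in Th1 than in Th17 cells (-0.56, adjusted p = 0.00926). The *Slc2a1* and *Aldoc* calls were lost when single libraries were left out (adjusted p of 0.053 to 0.208 and 0.072 to 0.107), as were those of *Pfkp* and *G6pdx* (0.0545 to 0.159 and 0.0652 to 0.0668). These values are on the log2(FPKM + 1) scale, with 2 libraries per group, and in each the 2 libraries of one group lay above those of the other. Groups of 2 libraries are too small to test a single library as an outlier.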

How the results depend on the processing

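The count of 27 genes higher than naive in all 3 subsets stayed between 26 and 27 under all alternatives. Counts of genes higher than naive kept within 26 to 29. Few genes were called lower or between subsets, and there the counts moved. In Th17 against naive cells 4 were lower, with 2 at a mean FPKM of at least 5 and 2 to 4 with 1 library left out. In Th17 against Th2 cells 2 were higher, with 1 without a filter, 0 after median scaling, 1 after quantile normalization and 0 to 2 with 1 library left out, and 10 were lower, with 5 to 9 when 1 library was left out (5 without Th2 replicate 2 or Th17 replicate 1). In Th1 against Th17 cells 0 were higher, with 1 after median scaling, 1 in a fit of only the 2 groups and 0 to 1 with 1 library left out, and 3 were lower, with 1 to 3 (1 without Th1 replicate 1 or Th17 replicate 2). With the replicate block, 1 was higher and 6 lower in Th1 than in Th17 cells. Also with the block, 2 were higher in Th1 than in Th2 cells, where the main fit had 1. In Th1 against Th2 cells 10 were lower, with 9 without a filter and 8 in a fit of only the 2 groups. That count also fell with some single libraries left out. The counts not named here moved by 1 gene at most. In Th17 against naive cells the filter at a mean FPKM of at least 5 left *Pdk2* untested, and *Taldo1* lost its call there. The cause of the other moves was not tested. A library left out leaves a lone library, assumed to vary like the other groups.

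Of uncalled differences, *Taldo1* in Th1 against naive cells turned to -0.12 after quantile normalization and ranged from -0.031 (without naive replicate 2) to 0.121 with 1 library left out, and *Pfkfb4* in Th17 against naive cells to -0.14 after quantile normalization. With no filter on low values *Taldo1* in Th17 against naive cells lost its call (adjusted p = 0.0962). The same held at a mean FPKM of at least 5 (0.0531) and with no trend (0.0501). The call was also lost without each naive, Th1 and Th17 library, at differences of -0.421 to -0.268. Against naive cells single libraries also decided *Eno3* in Th17 (0.0511 without Th17 replicate 1), *Pdk1* in Th17 (0.0587 without Th17 replicate 2), *Pdk2* in Th2 (0.0505 without Th2 replicate 1) and *G6pdx* in Th1 cells (0.0574 to 0.0799 without naive replicate 2 or Th1 replicate 2). Between subsets, no filter on low values also ended the calls of *Pfkm* (Th17 minus Th2, 0.06), *Pfkp* (0.0852 for Th1 and 0.104 for Th17 minus Th2), *Slc2a1* (0.137) and *Eno2* (Th1 minus Th17, 0.0863, and 0.0736 after median scaling). Median scaling moved the median difference of all genes from 0.184 to 0.025 for Th17 minus Th2, and quantile normalization moved it from 0.077 to -0.115 for Th17 minus naive. Naive levels of *Hk2*, *Slc16a3*, *Aldoc* and *Eno1* rest on about 11 to 96 fragments, which limits their ratios.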
